A study of Mus musculus with 16 samples.

Results

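The genes described here are 10 genes of megalin-mediated endocytosis and lysosomal breakdown in mouse kidney, taken by symbol from the 30277 genes of both deposited tables, where all 10 were found. They are Lrp2, Cubn, Amn, Dab2, Clcn5, Ctsb, Ctsd, Ctsl, Lgmn and Fcgrt. Polyadenylated RNA was measured in 16 kidney libraries from mice of the inbred strain 129S1/SvlmJ carrying the recessive Kl mutation of the Klotho gene on a congenic background. Controls, labelled as having healthy renal function, were heterozygous (+/Kl) in males, with 3 libraries at 45 to 46 days of age, and wild type (+/+) in females, with 4 libraries at 45 to 49 days. Kl/Kl mice, labelled as having renal disease, were homozygous: 5 male libraries came from 44 to 47 days of age and 4 female libraries from 45 to 54 days. The lesion is whole-body, and the genotype of the controls cannot be told apart from sex. The labels do not state that the libraries of a group came from separate animals, so each p-value reflects only how far these samples differ among themselves.

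The proximal tubule recovers filtered proteins through megalin, the giant receptor encoded by Lrp2, and its partner cubilin, which reaches the brush border only together with amnionless. The adaptor DAB2 links the receptors to clathrin, the exchanger ClC-5 supports the acidification of endosomes, and ligands are then degraded in lysosomes by cathepsins and legumain. The neonatal Fc receptor FcRn, whose heavy chain is the product of Fcgrt, diverts albumin and immunoglobulin G from this breakdown.

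Promoter windows are shown because genes of lysosomal enzymes often carry the letters CACGTG, the core of the element read by the transcription factors TFEB and TFE3, whereas the receptor genes are known as tubule genes. In RefSeq windows of 250 bases before the start (build GRCm38.p6, 9 of 10 genes matched with 12 windows), CACGTG, which reads the same on both strands, was found in Ctsd, Ctsl, Amn and Lgmn, the last in its second window. These are 44.4% of the 9 genes, where 6.86% of 27025 genes have it in a window of this length. The longer form TCACGTGA, which contains CACGTG, was in Ctsd among the 9 genes and in 0.907% of all genes. No CACGTG was in the windows of Lrp2, Cubn, Dab2, Clcn5 and Fcgrt. The windows of Lrp2 (chr2:69586030-69586279, minus strand) and Amn (chr12:111270846-111271095, plus strand), of the receptor complex, and of the proteases Ctsl (chr13:64370521-64370770, minus strand) and Ctsd (chr7:142387828-142388077, minus strand) read as follows from 5′ to 3′, with CACGTG and an adjoining T before it or A after it in capitals. They are Lrp2, a protease gene with no overlap between groups in either sex, and a further gene of each kind with the motif.
Lrp2: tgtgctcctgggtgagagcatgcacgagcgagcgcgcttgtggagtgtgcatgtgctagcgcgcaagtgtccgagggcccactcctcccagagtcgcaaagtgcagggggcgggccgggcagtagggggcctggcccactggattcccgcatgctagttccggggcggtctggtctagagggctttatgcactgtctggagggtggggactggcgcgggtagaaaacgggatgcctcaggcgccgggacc
Amn: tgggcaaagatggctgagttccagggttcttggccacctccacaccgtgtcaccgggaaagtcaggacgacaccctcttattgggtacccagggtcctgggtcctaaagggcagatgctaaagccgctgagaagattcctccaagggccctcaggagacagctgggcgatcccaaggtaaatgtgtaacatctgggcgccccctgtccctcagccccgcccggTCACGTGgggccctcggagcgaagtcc
Ctsl: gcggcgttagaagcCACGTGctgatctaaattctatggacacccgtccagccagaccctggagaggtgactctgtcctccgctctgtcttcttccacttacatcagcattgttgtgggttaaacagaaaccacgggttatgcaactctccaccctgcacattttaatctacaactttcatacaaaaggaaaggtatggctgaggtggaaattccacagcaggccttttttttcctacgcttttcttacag
Ctsd: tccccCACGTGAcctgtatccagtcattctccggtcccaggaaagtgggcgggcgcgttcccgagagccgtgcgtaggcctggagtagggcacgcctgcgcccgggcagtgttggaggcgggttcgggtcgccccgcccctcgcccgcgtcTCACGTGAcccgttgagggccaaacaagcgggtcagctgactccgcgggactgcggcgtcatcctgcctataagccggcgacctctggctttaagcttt
In Ctsl the motif began 236 bases before the start, in Amn 26 bases, and in Ctsd 245 and 98 bases. A match describes these letters and not binding.

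Values are TPM as deposited, in 1 table for each sex, with an estimated depth of 21.6 to 31.8 M reads per library. Judged by their lowest values, the authors' values appear to be divided by genomic span, introns included. For this reason, and because the tables were scaled separately, levels are compared here within a gene and within a sex. Kl itself was 0.0235 to 0.265 TPM in male Kl/Kl libraries against 4.14 to 15.1 TPM in male controls, and 0.0268 to 0.518 against 9.18 to 21.2 TPM in females. Of 2 libraries that stood apart, male control 3 had 54.3% of its summed values on mitochondrial genes, against 35.4% to 44.8% in the other 15 libraries. Female Kl/Kl 3 had a summed level of 24 proximal tubule markers of 95.2 TPM against 1657 to 3141 TPM in the other females, while 8 heart muscle markers summed to 1921 TPM and 6 airway markers to 1058 TPM. Its low Kl level therefore does not check its label. The 10 genes are given with and without these libraries.

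The genes of this pathway fared very unevenly in the 2 odd libraries. In male control 3, Lrp2 was at 15.4%, Cubn at 16.5% and Clcn5 at 23.8% of the mean of the other male controls, while Amn, Ctsl and Fcgrt were at 58.8%, 57.3% and 51.6%. Lrp2, Cubn and Clcn5 have the longest transcripts of the 10 genes in GENCODE M21 (15460, 11262 and 8390 nt), and those of Amn and Fcgrt are 1701 and 1770 nt. The order by length was not kept by the others: Ctsl has 6168 nt, while Lgmn (1990 nt) was at 34.6% and Ctsd (2127 nt) at 43.2%. Over all protein-coding genes of at least 1 TPM, the median log2 ratio of male control 3 to the other controls was -0.36 for transcripts up to 1500 nt and -1.24 above 8000 nt. The part of this gradient in the levels of single genes was not tested. In female Kl/Kl 3, the receptor genes were nearly absent, with Lrp2 at 0.305%, Cubn at 0.295% and Amn at 0.0869% of the other Kl/Kl females. Ctsb stood at 133% and Ctsl at 152% in that library. Its 10 macrophage markers summed to 507 TPM, against 16.0, 26.2 and 50.3 TPM in Kl/Kl females 1, 2 and 4. Lyz2 alone made up 427 TPM of that sum, against 3.40 to 16.2 TPM in the other Kl/Kl females. Csf1r of the same list went the other way, at 0.651 TPM against 1.82 to 2.42 TPM. The part of any cell type in these levels was not tested.

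**Figure D1:**
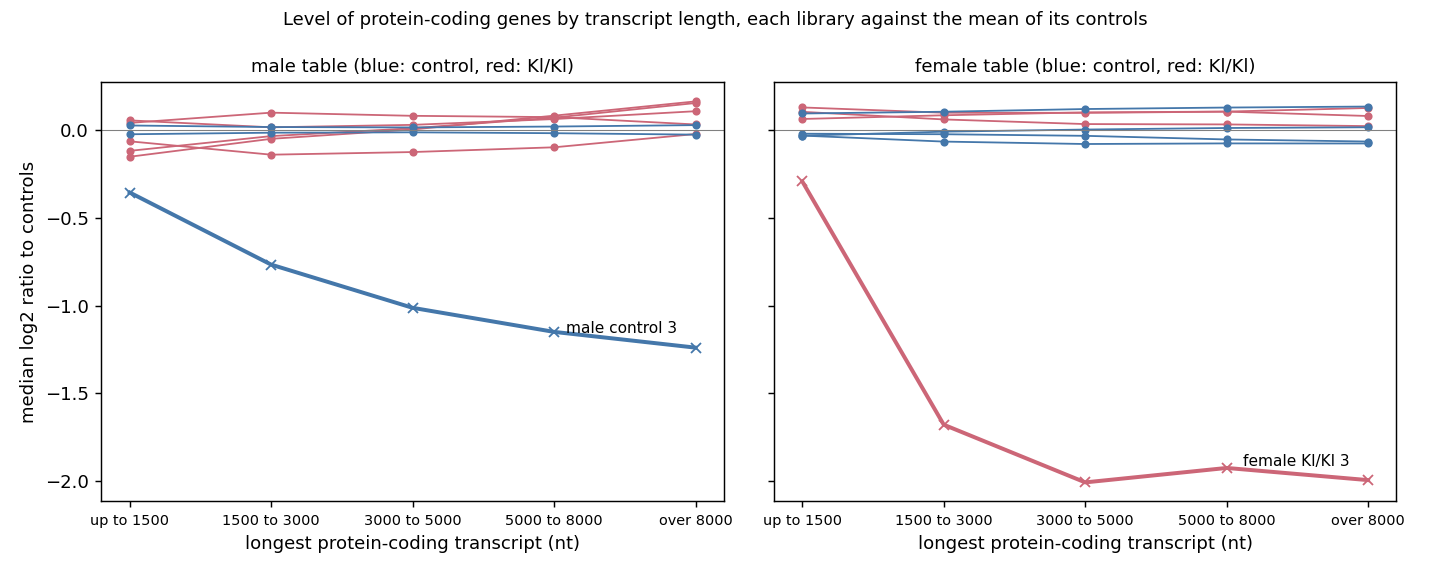
Median log2 ratio of protein-coding genes to the mean of the controls that did not stand apart (y axis), by length of the longest protein-coding transcript in nucleotides (x axis), 1 line per library, males left and females right. Male control 3 falls from -0.36 to -1.24 with length, female Kl/Kl 3 lies between -0.29 and -2.01, and the other 14 libraries lie between -0.15 and 0.16.

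By limma on log2(TPM + 1), with an adjusted p under 0.05 as the threshold, 0 of the tested genes of the pathway passed in males or in females, with or without the libraries that stood apart. Lrp2 (lower, in males only without control 3), Ctsb and Ctsl (higher) had groups without overlap in both sexes. Such non-overlap was common in males, where 19.1% of all genes tested lay wholly above the controls and 4.4% wholly below. Without control 3 these shares were 20.2% and 22.7%, and in females with all libraries 4.79% and 3.54%. In males 9 of the 10 genes had the mean of 1 TPM needed for the test, and 5.92% of 8439 genes passed. Without control 3 it was again 9, and 10.5% of 8640 genes passed. In females 9 were tested with 0.0349% of 8596 genes called, and without Kl/Kl 3 all 10 with 0.103% of 8748 genes called, 9 genes, or 17 with replicate numbers as a block. At an unadjusted p under 0.05 the pathway counted 3 genes in males (background 26.9%), 4 without control 3 (31.8%), 1 in females (4.82%) and 2 without Kl/Kl 3 (18.4%). Clcn5, at a mean below 1 TPM, entered the last of these fits only.

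**Figure D2:**
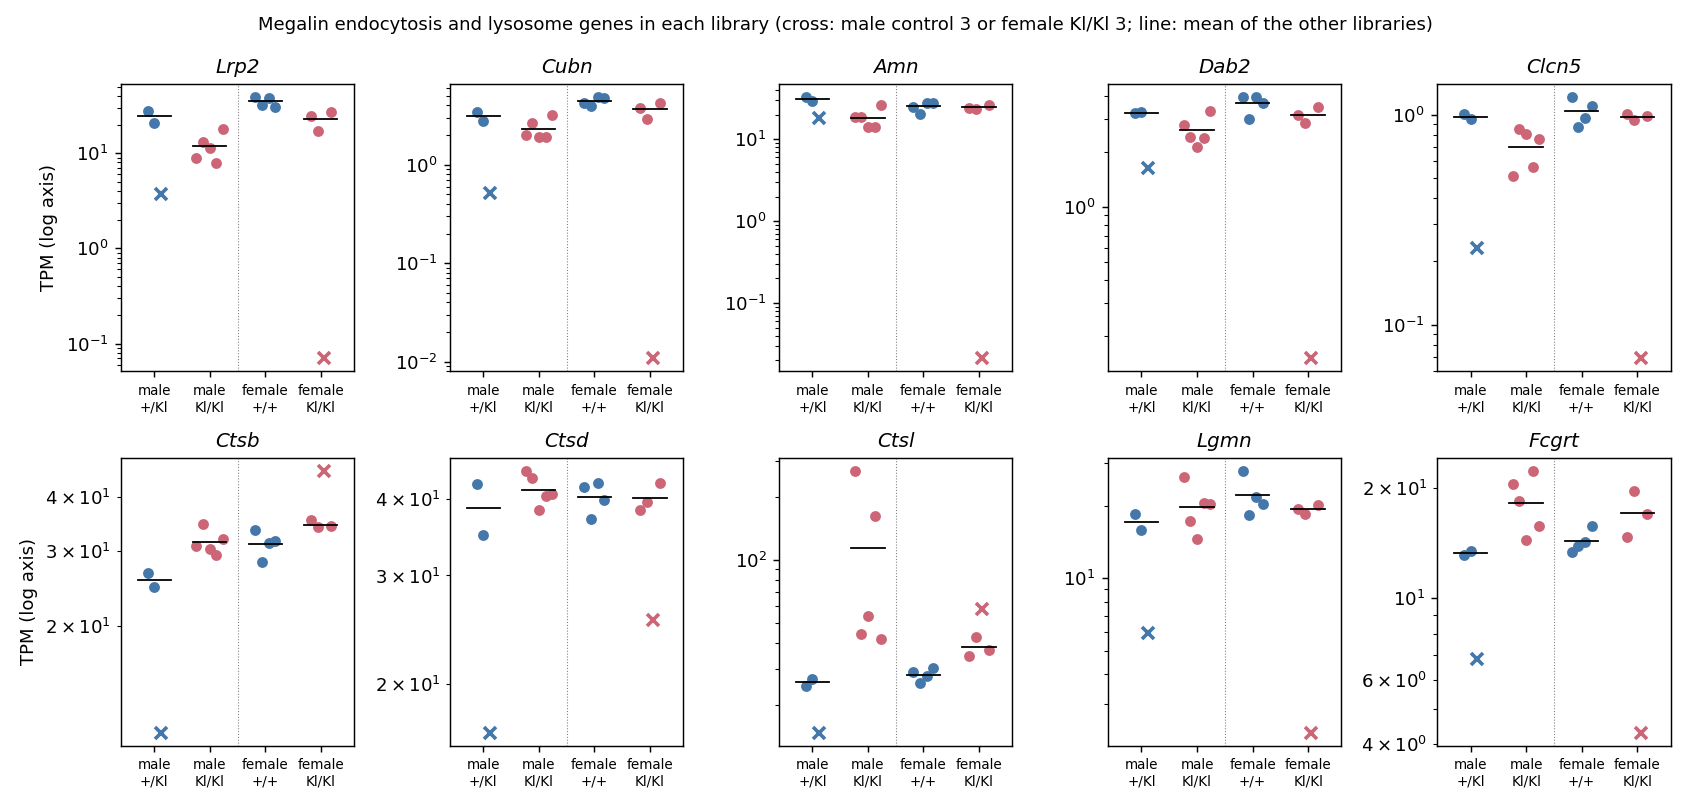
TPM of the 10 genes in each library (y axis, log scale), grouped by sex and genotype on the x axis, with controls in blue and Kl/Kl in red. Crosses are male control 3 and female Kl/Kl 3, and the line is the mean of the other libraries. Lrp2 is lower and Ctsl higher in Kl/Kl dots than in control dots of both sexes, with 2 male Kl/Kl libraries at 162 and 267 TPM of Ctsl.

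Non-overlap was counted over libraries. In males, Ctsb, Ctsl and Fcgrt had every Kl/Kl library above every control, as had 19.1% of all genes tested, and 0 of the 10 genes lay wholly below, as did 4.4% of all. Without control 3 the same genes lay above (20.2% of all), and Lrp2, Amn and Clcn5 lay below (22.7%). In females, with or without Kl/Kl 3, Ctsb and Ctsl lay above (4.79% and 12.2% of all) and Lrp2 lay below (3.54% and 3.9%). The smallest two-sided exact permutation p these designs allow is 0.0357 in males, 0.0952 without control 3, 0.0286 in females and 0.0571 without Kl/Kl 3. In bulk kidney RNA, fewer cells of a type and less RNA per cell cannot be told apart.

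Lrp2 (chr2:69254684-69416410, build mm39, minus strand) encodes megalin itself. Its level was 27.9, 20.9 and 3.76 TPM in male controls 1 to 3 and 8.85, 13.0, 11.3, 7.92 and 18.0 TPM in male Kl/Kl libraries 1 to 5. Control 3 was the lowest male library of all, while controls 1 and 2 were above every Kl/Kl male. Controls averaged 17.5 ± 12.4 TPM (SD, n = 3), Kl/Kl males 11.8 ± 4.02 TPM (SD, n = 5), a log2 change of -0.22 (SE 0.50, limma adjusted p = 0.790). Without control 3 the control mean was 24.4 ± 4.93 TPM (SD, n = 2), the Kl/Kl mean was 48.5% of it, and the log2 change was -1.02 (SE 0.29, limma adjusted p = 0.0572). The sign in males depended on single controls. With all other libraries kept, the log2 change was 0.28 without control 1 and 0.08 without control 2.

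In females Lrp2 was 39.2, 32.1, 38.4 and 30.7 TPM in controls 1 to 4 and 24.7, 17.0, 0.0700 and 27.2 TPM in Kl/Kl libraries 1 to 4. Every Kl/Kl female lay below every control, with or without Kl/Kl 3. Controls averaged 35.1 ± 4.34 TPM (SD, n = 4), Kl/Kl females 17.2 ± 12.2 TPM (SD, n = 4), a log2 change of -1.72 (SE 1.00, limma adjusted p = 0.745, exact permutation p = 0.0286). Without Kl/Kl 3 the Kl/Kl mean was 23.0 ± 5.33 TPM (SD, n = 3), 65.4% of control, with a log2 change of -0.61 (SE 0.16, limma adjusted p = 0.124). The exact permutation p was then 0.0571, the smallest that 4 against 3 can give. Kl/Kl 2, with the lowest Lrp2 outside Kl/Kl 3, also had the highest sum of 5 blood markers, at 1230 TPM. That sum was 35.1, 406 and 89.9 TPM in Kl/Kl females 1, 3 and 4 and 27.6 to 66.5 TPM in female controls. The part of blood in the level of Lrp2 was not tested.

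Lrp2 relative to other genes of the same tubule segment depended on the gene it was set against. Divided in turn by each of 24 proximal tubule markers, without the libraries that stood apart, it was below every control in all Kl/Kl males for 12 markers, above for 3 and overlapping for 9. In females the counts were 10, 1 and 13. The markers with Lrp2 higher against them in Kl/Kl males were Slc22a6, the organic anion transporter OAT1, Keg1 and Acsm2, with median quotients of 2.01, 3.47 and 2.11 where controls average 1, and in females Keg1 (1.45). Divided by Slc34a1, the sodium-phosphate cotransporter, Lrp2 was 0.637, 0.758, 0.663, 0.804 and 0.794 in the Kl/Kl males, 1.03 and 0.967 in controls 1 and 2, and 0.233 in control 3. In the Kl/Kl females 1, 2 and 4 that quotient was 0.775, 0.580 and 0.688, and the female controls ran from 0.809 to 1.16.

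Proximal tubule markers themselves moved with Lrp2 in males. Without control 3, 18 of the 24 had a negative log2 change, with a median of -0.45 beside 0.01 over all genes tested, 4 fell (Keg1, Acsm2, Slc22a6 and Ggt1) where 7.36% of all genes did, and Slc5a12 rose where 3.16% did. Slc22a6 was 116 and 134 TPM in controls 1 and 2, 57.7 TPM in control 3 and 15.7 to 45.2 TPM in Kl/Kl males. With all males the median was -0.08 beside 0.19 over all genes. In females without Kl/Kl 3 the median was -0.11 beside 0.06, and 0 of 24 passed. The sum of the 24 markers overlapped between groups in both sexes, at 1345 to 2171 TPM in male Kl/Kl libraries and 1989 and 2310 TPM in male controls 1 and 2, and Pck1 alone made up 473 to 1531 TPM of it in those 7 libraries. The part of the tubule markers in the level of Lrp2 was not tested.

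Cubn (chr2:13281149-13496625, minus strand) encodes cubilin, the receptor of intrinsic factor and albumin. It was 3.47, 2.78 and 0.515 TPM in male controls and 2.01, 2.64, 1.89, 1.90 and 3.20 TPM in male Kl/Kl libraries. In females it was 4.28, 3.97, 4.91 and 4.73 TPM in controls and 3.78, 2.95, 0.0108 and 4.24 TPM in Kl/Kl libraries. The groups overlapped in both sexes. Its log2 change was 0.16 in males (SE 0.31, limma adjusted p = 0.748) and -0.32 without control 3 (SE 0.17, adjusted p = 0.225). In females it was -0.79 (SE 0.50, limma adjusted p = 0.745), and -0.24 without Kl/Kl 3 (SE 0.11, adjusted p = 0.279). Cubn over Lrp2 was above its controls in each Kl/Kl male, at 1.30 to 1.87 against 0.966 and 1.03 in controls 1 and 2, and was 1.07 in control 3, where both were low. In Kl/Kl females 1, 2 and 4 it was 1.19, 1.35 and 1.21 against 0.848 to 1.20 in controls, which overlapped.

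Amn (chr12:111237529-111242861, plus strand) encodes amnionless, the membrane anchor of cubilin. Its male controls had 33.0, 29.2 and 18.3 TPM and its male Kl/Kl libraries 18.8, 18.7, 14.0, 14.2 and 26.1 TPM. Controls 1 and 2 lay above every Kl/Kl male and control 3 did not. Over all males the log2 change was -0.52 (SE 0.26, limma adjusted p = 0.226), and -0.76 without control 3 (SE 0.23, adjusted p = 0.0705), with a Kl/Kl mean of 18.3 ± 4.90 TPM (SD, n = 5) at 59.0% of control. In females Amn was 24.7, 20.4, 27.7 and 27.7 TPM in controls and 24.1, 23.2, 0.0212 and 26.0 TPM in Kl/Kl libraries. Outside Kl/Kl 3 the female groups overlapped, with a log2 change of -0.03 (SE 0.11, limma adjusted p = 0.907). It was -1.19 with it (SE 1.03, limma adjusted p = 0.745). The change in females minus that in males, without both libraries that stood apart, was 0.73 for Amn (SE 0.26, limma adjusted p = 0.142), the smallest adjusted p among the 9 tested genes of the pathway. In that test of the sexes, 0 of the 9 were called, where 3.89% of 8696 genes were, and with all libraries 0 of 9 against 0.211% of 8535. Both tests set +/Kl males against +/+ females as controls.

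Dab2 (chr15:6329269-6470194, plus strand), the endocytic adaptor, was 3.23, 3.29 and 1.63 TPM in male controls and 2.81, 2.41, 2.12, 2.38 and 3.33 TPM in male Kl/Kl libraries. Female controls had 3.94, 3.00, 3.97 and 3.69 TPM and female Kl/Kl libraries 3.16, 2.87, 0.151 and 3.48 TPM. The groups overlapped in both sexes in each comparison. Dab2 had a log2 change of -0.02 in males (SE 0.19, limma adjusted p = 0.967), -0.25 without control 3 (adjusted p = 0.231), -0.62 in females (adjusted p = 0.745) and -0.16 without Kl/Kl 3 (adjusted p = 0.391). The male value with all libraries changed sign on leaving out single libraries or adding the library name prefix.

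Clcn5 (chrX:7020049-7185598, minus strand) encodes the endosomal chloride-proton exchanger ClC-5, the gene mutated in Dent disease. It was 1.01, 0.949 and 0.233 TPM in male controls and 0.509, 0.854, 0.810, 0.562 and 0.764 TPM in male Kl/Kl libraries. Controls 1 and 2 were above all Kl/Kl males, which had a mean 71.5% of theirs (exact permutation p = 0.0952, the smallest possible), and control 3 was below all of them (exact permutation p = 0.964 with it). In females it was 1.22, 0.874, 0.962 and 1.11 TPM in controls and 1.01, 0.941, 0.0690 and 0.983 TPM in Kl/Kl libraries, which overlapped. Without Kl/Kl 3 the log2 change was -0.04 (SE 0.07, limma adjusted p = 0.758).

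**Figure D3:**
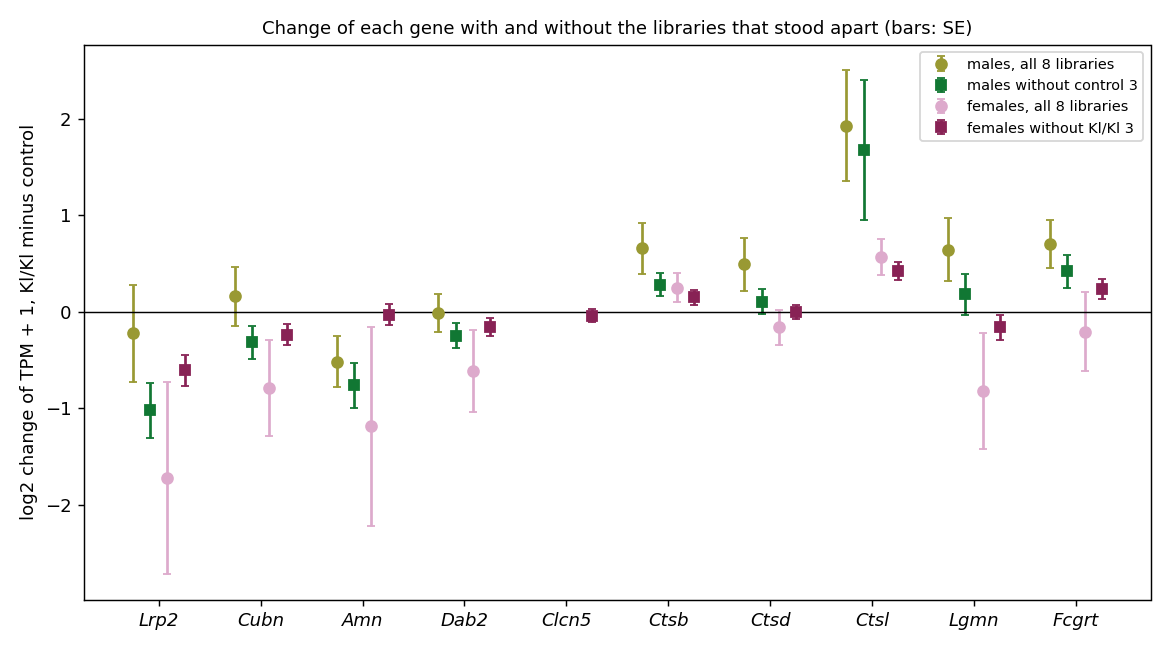
Log2 change of TPM + 1, Kl/Kl minus control (y axis), for each gene (x axis), with SE as bars, in males and females with all 8 libraries (circles) and without male control 3 or female Kl/Kl 3 (squares). Lrp2 in males moves from -0.22 to -1.02 when control 3 is left out, Ctsl stays highest in males, and Clcn5 has 1 point because it was tested in 1 fit.

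Among the proteases, the thiol cathepsins B and L had every Kl/Kl library above every control in both sexes, as had 19.1% of all genes in males and 4.79% in females, and neither passed limma on log2(TPM + 1). Ctsb (chr14:63359911-63383373, plus strand) encodes cathepsin B. It was 26.6, 24.7 and 11.2 TPM in male controls and 30.7, 34.6, 30.3, 29.2 and 31.9 TPM in male Kl/Kl libraries. Each Kl/Kl male exceeded each control, and the Kl/Kl libraries were close to each other. Controls averaged 20.8 ± 8.38 TPM (SD, n = 3), Kl/Kl males 31.4 ± 2.03 TPM (SD, n = 5), a log2 change of 0.65 (SE 0.27, limma adjusted p = 0.148). Without control 3 the Kl/Kl mean was 122% of control and the log2 change 0.28 (SE 0.12, limma adjusted p = 0.144). In females Ctsb was 33.5, 28.3, 31.3 and 31.6 TPM in controls and 35.3, 34.1, 46.1 and 34.2 TPM in Kl/Kl libraries. The female groups did not overlap either, and Kl/Kl 3 was the highest. The log2 change was 0.25 (SE 0.15, limma adjusted p = 0.745), and 0.15 without Kl/Kl 3 (SE 0.07, adjusted p = 0.328), with a mean at 111% of control.

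Ctsl (chr13:64507151-64518705, minus strand), cathepsin L, differed most in size. Male controls had 24.8, 26.9 and 14.8 TPM, and male Kl/Kl libraries had 267, 43.9, 53.7, 162 and 41.7 TPM. Kl/Kl males 1 and 4 stood far above the other 3 Kl/Kl males, which in turn lay above all controls. Controls averaged 22.2 ± 6.46 TPM (SD, n = 3), Kl/Kl males 114 ± 99.4 TPM (SD, n = 5), 5.13-fold as much, with a median of 53.7 TPM in Kl/Kl. The log2 change was 1.93 (SE 0.58, limma adjusted p = 0.0679), and 1.67 without control 3 (SE 0.73, adjusted p = 0.158). In females Ctsl was 29.1, 25.7, 27.6 and 30.2 TPM in controls and 34.4, 42.6, 57.9 and 37.0 TPM in Kl/Kl libraries. No Kl/Kl female was as high as Kl/Kl males 1 and 4, yet all lay above their controls. The log2 change was 0.57 (SE 0.19, limma adjusted p = 0.745, exact permutation p = 0.0286). Without Kl/Kl 3 it was 0.42 (SE 0.09, limma adjusted p = 0.0940), with the Kl/Kl mean at 135% of control. The difference of this change between the sexes was -1.26 without both libraries (SE 0.77, limma adjusted p = 0.384).

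Ctsd (chr7:141929648-141941776, minus strand), the aspartic protease cathepsin D, was 42.2, 34.9 and 16.7 TPM in male controls and 44.3, 43.2, 38.3, 40.4 and 40.6 TPM in male Kl/Kl libraries. In females it was 41.7, 37.0, 42.5 and 39.7 TPM in controls and 38.4, 39.4, 25.4 and 42.3 TPM in Kl/Kl libraries. Without the libraries that stood apart its groups lay on top of each other, with Kl/Kl means at 107% of control in males and 99.6% in females. Its log2 change was then 0.10 in males (SE 0.13, limma adjusted p = 0.606) and -0.01 in females (SE 0.08, adjusted p = 0.978). With all libraries it was 0.49 (limma adjusted p = 0.270) and -0.16 (adjusted p = 0.745). Ctsb over Ctsd, set to 1 in controls, was 1.04 to 1.20 in Kl/Kl males and 0.942 and 1.06 in controls 1 and 2, and these ranges overlapped.

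Lgmn (chr12:102360343-102406073, minus strand) encodes legumain, an asparaginyl endopeptidase that processes cathepsins. It was 18.4, 15.8 and 5.92 TPM in male controls and 26.3, 17.3, 14.6, 20.5 and 20.2 TPM in male Kl/Kl libraries. Female controls had 27.8, 18.3, 21.8 and 20.2 TPM and female Kl/Kl libraries 19.4, 18.5, 2.29 and 20.2 TPM. The groups overlapped in both sexes. Lgmn had a log2 change of 0.64 in males (SE 0.33, limma adjusted p = 0.231), 0.18 without control 3 (adjusted p = 0.583), -0.82 in females (adjusted p = 0.745) and -0.16 without Kl/Kl 3 (adjusted p = 0.514).

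Fcgrt (chr7:44742414-44753276, minus strand), the FcRn heavy chain, was 13.1, 13.4 and 6.84 TPM in male controls and 20.5, 18.4, 14.4, 22.2 and 15.7 TPM in male Kl/Kl libraries. All Kl/Kl males were above all controls, and Kl/Kl 1 and 4, the libraries with most Ctsl, were the highest. In males it had a log2 change of 0.70 (SE 0.25, limma adjusted p = 0.107), and 0.42 without control 3 (SE 0.18, adjusted p = 0.148), with the Kl/Kl mean at 138% of control. Female controls had 13.4, 13.9, 14.2 and 15.8 TPM and female Kl/Kl libraries 14.7, 19.6, 4.30 and 16.9 TPM, and these overlapped. The log2 change in females was -0.21 (SE 0.41, limma adjusted p = 0.797), and 0.23 without Kl/Kl 3 (SE 0.10, adjusted p = 0.279). B2m, the light chain partner of FcRn, had a log2 change of -0.00 in males without control 3 (SE 0.14, limma adjusted p = 0.989) and 0.16 in females without Kl/Kl 3 (SE 0.13, adjusted p = 0.537).

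Within a library, Ctsb, Ctsl and Ctsd over Lrp2 were higher in Kl/Kl kidneys of both sexes than in the controls that did not stand apart. Because Lrp2 was lower in Kl/Kl than in those controls, such quotients rise even where the protease gene does not. Ctsd itself was at 107% of control in males and 99.6% in females without the libraries that stood apart. Ctsb over Lrp2, set to 1 in the controls that did not stand apart, was 3.25, 2.48, 2.51, 3.46 and 1.66 in Kl/Kl males and 0.893 and 1.11 in controls 1 and 2. Control 3, at 2.79, lay inside the Kl/Kl range. In Kl/Kl females 1, 2 and 4 it was 1.59, 2.25 and 1.41 against 0.910 to 1.15 in controls. Ctsl over Lrp2 was 27.7, 3.09, 4.36, 18.8 and 2.12 in Kl/Kl males, 0.819 and 1.18 in controls 1 and 2, 3.62 in control 3, and 1.72, 3.10 and 1.68 in Kl/Kl females 1, 2 and 4 against 0.884 to 1.21 in controls. Ctsd over Lrp2 was 1.41 to 3.20 in Kl/Kl males, 0.951 and 1.05 in controls 1 and 2, 2.78 in control 3, and 1.34, 2.01 and 1.35 in those Kl/Kl females against 0.922 to 1.12 in controls. These quotients are descriptions and were not tested.

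**Figure D4:**
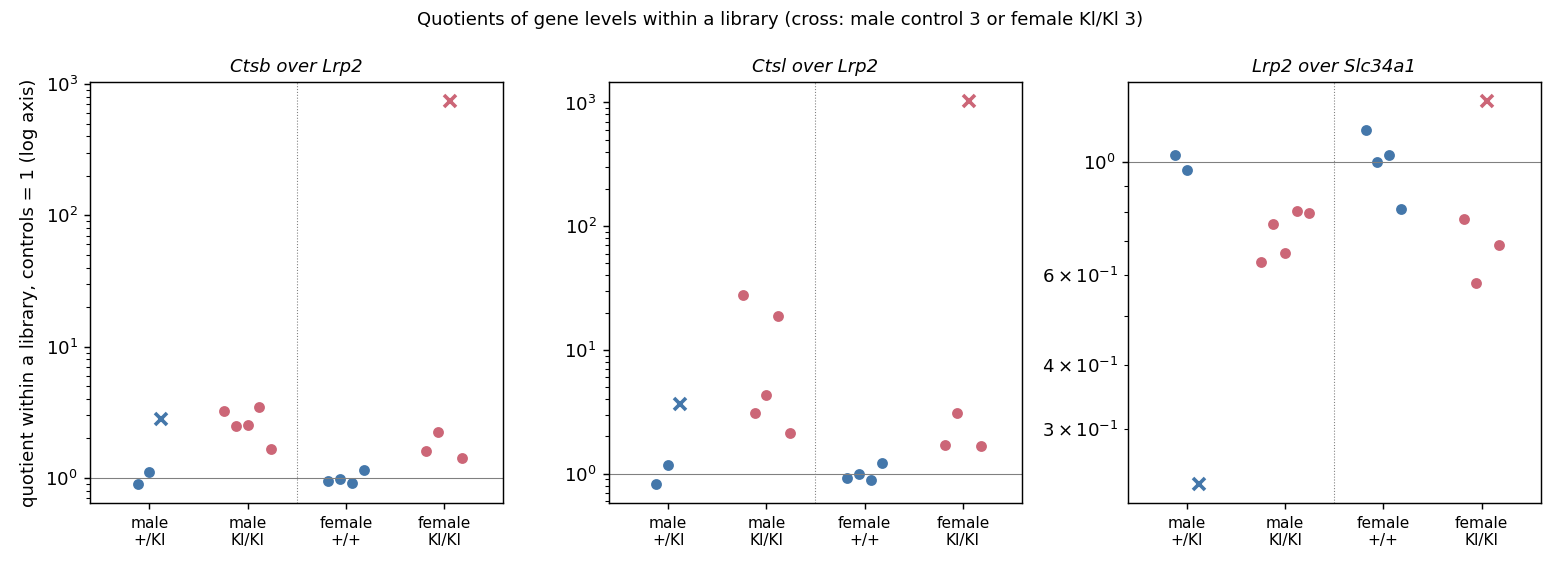
Quotients of TPM within each library (y axis, log scale, controls without the libraries that stood apart set to 1), by sex and genotype (x axis), with crosses for male control 3 and female Kl/Kl 3. Ctsb over Lrp2 is 1.41 to 3.46 in Kl/Kl dots of both sexes and at most 1.15 in control dots, and Lrp2 over Slc34a1 is 0.580 to 0.804 against at least 0.809.

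Macrophages are also rich in cathepsins, and some of their markers were higher in Kl/Kl males. The summed level of 10 macrophage markers was 12.0 and 15.2 TPM in male controls 2 and 1, 8.60 TPM in control 3 and 18.1 to 31.0 TPM in male Kl/Kl libraries. In females it was 13.4 to 22.8 TPM in controls and 16.0, 26.2 and 50.3 TPM in Kl/Kl 1, 2 and 4, which overlapped. Of the 7 macrophage genes tested, 2 rose in males without control 3, Lyz2 (log2 1.23, limma adjusted p = 0.0100) and Cd14 (log2 1.36, adjusted p = 0.0214), where 3.16% of all genes rose. Csf1r, the receptor that maintains macrophages, went the other way, at 0.879 to 1.87 TPM in Kl/Kl males and 3.18, 2.33 and 1.91 TPM in controls 1 to 3 (log2 -0.68 without control 3, limma adjusted p = 0.0503). The defining marker Adgre1 overlapped between the male groups. It was 0.0144 to 0.0379 TPM in Kl/Kl males and 0.0264, 0.0258 and 0.00670 TPM in controls 1 to 3. In Kl/Kl males 1 to 5 the macrophage sum was 25.1, 31.0, 18.1, 29.0 and 26.0 TPM. Ctsl was 267, 43.9, 53.7, 162 and 41.7 TPM in these libraries. In the same order Lyz2 was 5.66, 9.23, 5.51, 5.56 and 7.31 TPM, and Cd14 was 9.85, 6.36, 6.17, 12.3 and 5.83 TPM. The part of macrophages in the levels of Ctsb and Ctsl was not tested.

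Genes of the same pathway were followed in 5 lists around the 10 genes, tested in the same fits. In males without control 3, members of every list fell and 0 rose, where 7.36% of all genes tested fell and 3.16% rose. Those that fell were 2 of 11 receptor partners and ligand carriers, 1 of 31 of clathrin coat and early endosome and 4 of 23 of acidification. Of other cathepsins and hydrolases 5 of 31 fell, and of lysosome membrane and sorting 2 of 20. The median log2 changes of the 5 lists were -0.0024, -0.09, -0.32, -0.23 and -0.14. They stood beside 0.01 over all genes tested and 0.10 over the 9 tested genes of the pathway. With all male libraries only Slc9a8 and Galns passed, both lower, where 2.18% of all genes passed as lower and 3.74% as higher, and the medians were 0.23, 0.14, -0.10, 0.01 and 0.11 beside 0.19 over all genes. In females 0 passed in each of the 5 lists, where 0.0457% of all genes passed as lower without Kl/Kl 3, with medians of 0.05, 0.04, -0.05, -0.06 and -0.00 without Kl/Kl 3 beside 0.06 over all genes. Unadjusted p was under 0.05 there for 3 of 11, 1 of 31, 2 of 23, 4 of 30 and 1 of 21 genes, beside 18.4% of all genes.

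Of the receptor partners, 2 fell in males when control 3 was left out. Lrpap1, the chaperone known as RAP that escorts megalin to the surface, fell from 34.9 TPM to a mean of 18.6 ± 4.22 TPM (SD, n = 5; log2 -0.90, SE 0.21, limma adjusted p = 0.0352). Tcn2, the vitamin B12 carrier transcobalamin that megalin takes up, fell from 104 to 54.0 ± 13.7 TPM (log2 -0.97, SE 0.23, limma adjusted p = 0.0393). Among sorting genes, Snx3 of the retromer pathway fell by 0.50 on the log2 scale (limma adjusted p = 0.0160). Control 3, at 18.0 TPM of Lrpap1 and 56.6 TPM of Tcn2, lay near the Kl/Kl means. With all males the log2 changes were -0.60 for Lrpap1, -0.68 for Tcn2 and -0.25 for Snx3 (limma adjusted p = 0.186, 0.150 and 0.387). In females without Kl/Kl 3, Tcn2 was 86.7 TPM in controls and 64.0 TPM in Kl/Kl (log2 -0.42, limma adjusted p = 0.193), and Lrp1, a receptor related to megalin, was 0.989 and 1.49 TPM (log2 0.32, adjusted p = 0.217).

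Of the acidification genes, Slc9a8, a sodium-proton exchanger of endomembranes, differed most. It fell from 5.38 and 6.89 TPM in male controls 1 and 2 to 0.732 to 1.02 TPM in Kl/Kl males (log2 -1.94, SE 0.11, limma adjusted p = 3.78e-05), and control 3 was at 2.38 TPM. With all male libraries it fell by 1.58 on the log2 scale (limma adjusted p = 0.00278). In females it was 2.39 to 6.58 TPM in controls and 0.848 to 1.35 TPM in Kl/Kl 1, 2 and 4, again with no overlap (log2 -1.24, SE 0.27, limma adjusted p = 0.0940). The proton pump subunits Atp6v1a and Atp6v0a2 fell by 0.62 and 0.44 on the log2 scale in males without control 3 (limma adjusted p = 0.0335 and 0.0142), and so did Slc9a3r1, the brush border scaffold NHERF1, by 0.60 (adjusted p = 0.0381). With all males these were -0.01 for Atp6v1a, -0.09 for Atp6v0a2 and -0.44 for Slc9a3r1 (limma adjusted p = 0.987, 0.813 and 0.176).

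Of 31 other lysosomal hydrolases, 5 fell in males without control 3, and with all males Galns was the 1 that did. Galns, a sulfatase of keratan sulfate, fell from 3.80 and 4.35 to a mean of 1.21 ± 0.19 TPM (SD, n = 5; log2 -1.20, limma adjusted p = 0.000471), and with all male libraries by 0.94 on the log2 scale (adjusted p = 0.0190). Asah1, acid ceramidase, fell from a mean of 3.59 to 1.57 TPM (log2 -0.84, limma adjusted p = 0.00139). Gusb (beta-glucuronidase) fell by 0.65 on the log2 scale (limma adjusted p = 0.0266), as did Lipa, acid lipase, by 0.51 (adjusted p = 0.0471), which is named after its value was seen. M6pr, a mannose 6-phosphate receptor that sorts hydrolases, fell by 0.64 (limma adjusted p = 0.00987), and Psap, the precursor of the saposins, by 0.57 (adjusted p = 0.0488). With all males the log2 changes were -0.49 for Asah1, -0.36 for Gusb, -0.09 for Lipa, -0.28 for M6pr and -0.09 for Psap, and limma adjusted p was 0.182 to 0.879.

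Most of these calls rested on both remaining male controls. Leaving out control 1 or 2 as well ended those of Tcn2, Lrpap1, Snx3, Atp6v1a, Slc9a3r1, Atp6v0a2, Gusb, M6pr and Psap, with limma adjusted p of 0.115 to 0.319, and did not end those of Slc9a8, Galns and Asah1. The single control then left is assumed to vary like the Kl/Kl group. Leaving out 1 Kl/Kl male also ended the calls of Tcn2 (replicate 1, 2, 3 or 4), Lrpap1 (3 or 4), Atp6v1a (2 or 4), Slc9a3r1 (1, 3 or 5) and Psap (1, 2, 3 or 5), with limma adjusted p of 0.0518 to 0.0854. The values of Lipa in these alternatives are not given here. With replicate numbers as a block Slc9a8 and Galns stayed called, while Asah1 had a limma adjusted p = 0.0548 and the others 0.0773 to 0.183. Calls were also lost with no filter (Lrpap1, Tcn2, Atp6v1a, Slc9a3r1, Gusb and Psap), with voom (Lrpap1, Atp6v1a, Slc9a3r1 and Psap), with the library name prefix (Tcn2 and Psap) and with age (Psap), at limma adjusted p of 0.0532 or more.

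**Figure D5:**
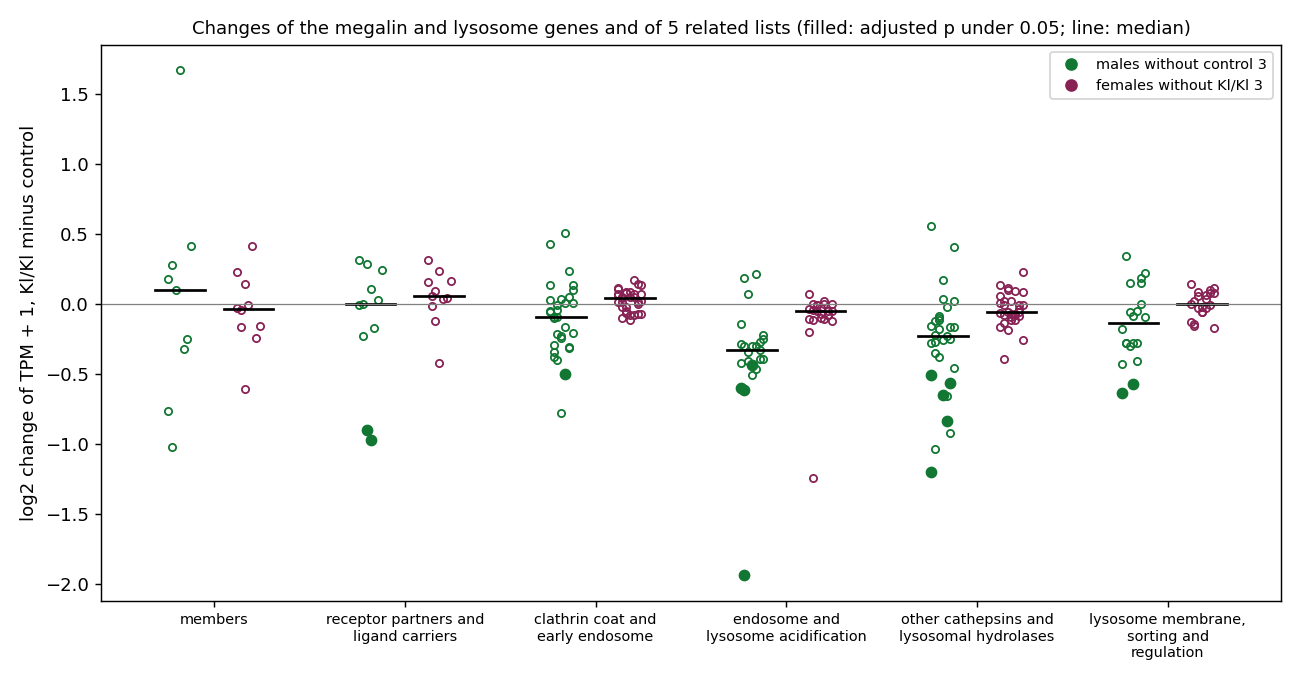
Log2 change of TPM + 1, Kl/Kl minus control (y axis), for every tested gene of the pathway (members) and of 5 related lists (x axis), in males without control 3 (green) and females without Kl/Kl 3 (purple), with filled dots for adjusted p under 0.05 and lines at the medians. All 14 filled dots are male and lie below 0. Of all genes tested, 7.36% passed as lower and 3.16% as higher in that male fit, and 0.103% passed in that female fit. Slc9a8 is the lowest point in both sexes.

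For Galns, Asah1, Gusb, M6pr and Snx3 of these lists the male and female changes differed by limma's interaction test without both libraries. By list, 0 of 11 receptor partners and ligand carriers passed, 1 of 31 of clathrin coat and early endosome and 0 of 23 of acidification. Of the other cathepsins and hydrolases 4 of 31 passed, and of lysosome membrane and sorting 1 of 20, beside 3.89% of 8696 genes. Sex cannot be told apart here from the genotype of the controls. The female change minus the male change was 1.43 for Galns (SE 0.11, adjusted p = 9.27e-06), 0.72 for Asah1 (limma adjusted p = 0.00584), 0.76 for Gusb (adjusted p = 0.0215), 0.51 for M6pr (adjusted p = 0.0186) and 0.42 for Snx3 (adjusted p = 0.0277). Galns was 0.889 ± 0.0434 TPM in female controls (SD, n = 4), whereas Kl/Kl females 1, 2 and 4 averaged 1.22 ± 0.160 TPM (SD, n = 3), with a log2 change of 0.23 (limma adjusted p = 0.112). With all 16 libraries 0 of these 5 passed, with limma adjusted p of 0.542 to 0.978. Without male control 1 or 2 the calls of Snx3, Gusb and M6pr ended, and the call of Galns held in all 22 alternatives run. Leaving out 1 female library also ended the call of Snx3 (Kl/Kl 1, 2 or 4, control 2 or 3), Gusb (Kl/Kl 4, control 2) and M6pr (Kl/Kl 1 or 4), with limma adjusted p of 0.0504 to 0.0751. The replicate block ended the calls of Asah1, Gusb, M6pr and Snx3 (limma adjusted p = 0.0714, 0.113, 0.121 and 0.163). Voom and rescaling outside mitochondrial genes each ended those of Snx3 (0.104 and 0.0657) and M6pr (0.0730 and 0.0532).

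By the mean absolute difference of centred log2(TPM + 1) values over 14 libraries, the 5 genes most like Lrp2 among 2278 genes with at least 5 TPM were Oxct1 (0.10), Glb1l (0.15), Apeh (0.16), Cryzl2 (0.16) and Chd3 (0.17). Oxct1, an enzyme of ketone body use, was 13.0 and 11.1 TPM in male controls 1 and 2, 2.88 to 7.39 TPM in male Kl/Kl, 10.1 to 12.3 TPM in female controls and 5.96 to 9.06 TPM in female Kl/Kl 1, 2 and 4. Of the pathway genes above that level, Amn ranked 124 by this measure, Lgmn 797, Ctsd 1068, Ctsb 1560, Fcgrt 1869 and Ctsl 2254.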

How the data were processed

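Per the labels, polyadenylated RNA from perfused, frozen kidneys was made into directional libraries. The submitters' processing notes name Partek and build mm39. The aligner, counting and use of strand: not given in the sources used here. The authors deposited TPM values in 2 tables, with column totals of 285327 (males) and 265288 (females). The lowest values appear to be an offset for genes without reads. It was taken to be worth 0.0001 read, from which depths of 21.6 to 31.8 M reads were estimated. On that scale, 68.6% to 73.5% of genes with few reads per library lay within 0.05 of a whole read. Precision is given as spread between libraries, and overlapping genes may share reads.

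Groups came from the labels, with 0 columns unmapped. Values were analysed as log2(TPM + 1) with limma 3.58.1 in R 4.3.3 (lmFit, eBayes with a trend), keeping genes that averaged 1 TPM or more within a fit, with Benjamini-Hochberg adjustment over all genes of that fit, after a test of the script on simulated data. Log2 changes are on that scale, which understates changes of low genes. Exact permutation tests (SciPy 1.17.1) were two-sided on the difference in mean log2(TPM + 1). Python 3.11.15, pandas 2.3.3, NumPy 2.4.6 and matplotlib 3.10.9 were used. The members, lists, tests and left-out libraries were chosen with earlier results of these data known. Named genes were the 10 members, up to 4 genes past the threshold from each list with the largest change in each direction (or 2 as values), and the 5 genes most like Lrp2. The genes named for the test between sexes are those of the lists that passed it, and 1 gene that the rule names is not reported here.

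Same-numbered samples did not deviate together in males (correlations -0.13, 0.04 and -0.18) or females (-0.12 to 0.29). In females without Kl/Kl 3 every correlation was over 0.1 (0.22, 0.21 and 0.48). Those same-numbered samples also had the same age (45, 45 and 48 days), and the labels state no pairing. Whether the numbers pair the samples is therefore not known, and the main fits and exact tests do not use them. Alternatives were a pseudocount of 0.1, no filter or a mean of at least 5 TPM, median-of-ratios scaling, a replicate block, age, voom on estimated reads and each library left out, and, chosen after seeing the data, rescaling outside mitochondrial genes and the library name prefix. Lrp2 was set against all 24 tubule markers after seeing the data. GENCODE M21 transcript lengths matched 99.7% of protein-coding genes. Gene positions are mm39 from the files, and promoter windows are RefSeq's on GRCm38.p6.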

Additional observations from a re-analysis of the deposited data

Results flagged for a closer look

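In groups of 4 or 5 libraries, 4 of 30 gene and group combinations had a single library far from the rest of its group, where chance gives about 1 in 20. All 4 were female Kl/Kl 3. Amn was 0.0212 TPM there against 23.2 to 26.0 TPM in the other Kl/Kl females, Clcn5 0.0690 against 0.941 to 1.01 TPM, and Lgmn 2.29 against 18.5 to 20.2 TPM. Ctsb went the other way, at 46.1 TPM against 34.1 to 35.3 TPM. The summed heart, airway and macrophage markers of this library are given above.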

How the results depend on the processing

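Counts over all genes moved more than calls in the pathway. In males the 500 calls (316 higher, 184 lower) became 322 with a mean of at least 5 TPM, 1182 with median-of-ratios scaling (487 higher, 695 lower), 227 with a replicate block, 1503 with voom, 852 rescaled outside mitochondrial genes and 1249 with the name prefix (990 higher, 259 lower), and 185 to 909 without single libraries, lowest without control 2 and highest without control 3, each library but Kl/Kl 5 moving it by over 1.5 times. That scaling took the median of all genes from 0.19 to 0.01 in males and from -0.16 to 0.00 in females. Without control 3 the 909 (273 higher, 636 lower) became 570, 309, 1387 and 1695 with the stricter filter, block, voom and prefix (738 higher, 957 lower), with 470 higher and 679 lower under median-of-ratios scaling, and 127 or 128 without control 1 or 2 (up to 1035 without others). In females the 3 became 8 with no filter and 0 with the block or voom, and 2 to 9 without single libraries, 5 without Kl/Kl 4. Without Kl/Kl 3 the 9 became 2 with a pseudocount of 0.1, 14 with no filter or with the prefix, 5 with the stricter filter, 4 with either rescaling and 17 with the block, and 3 to 48 without single libraries, 3 without Kl/Kl 1 or 2, 4 without control 3 and 48 without Kl/Kl 4. Between the sexes the 18 became 10 with a pseudocount of 0.1, 117 with no filter, 3 with the stricter filter, 31 with median-of-ratios scaling or age, 9 with the block and 8 with voom (9 to 75 without single libraries, 9 and 10 without male control 1 and 2 and 75 without female Kl/Kl 3), and without both libraries the 338 (298 higher, 40 lower) became 598, 182 and 223 with no filter, the stricter filter and the block, 219 higher and 70 lower under median-of-ratios scaling, 177 higher and 56 lower outside mitochondrial genes, and 97 to 423 without single libraries, under 338 by over 1.5 times without male control 1 or 2, any Kl/Kl female, or female control 2 or 3.

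Among the pathway genes, limma's 0 calls in males became 1 with median-of-ratios scaling (Amn, adjusted p = 0.0321), 2 with voom (Ctsl 0.0329, Fcgrt 0.0240) and 2 with the prefix (Ctsl 0.0322, Fcgrt 0.0434). Without control 3 they became 1 with the stricter filter (Lrp2, adjusted p = 0.0433), 2 with age (Lrp2 0.0124, Amn 0.0192), 1 with voom (Fcgrt 0.0454) and 0 to 2 without single libraries (Lrp2 0.0214 and Amn 0.0228 without Kl/Kl 5). Over its alternatives there, adjusted p ran from 0.0124 to 0.331 for Lrp2. Between the sexes they were 0 to 1 without single libraries, and in females the count stayed 0 in each alternative. The replicate block changed no other call of these 10 genes. Some log2 changes changed sign. Without single libraries, those in males ran from -1.02 to 0.28 for Lrp2 (0.28 and 0.08 without control 1 and 2), -0.32 (without control 3) to 0.46 for Cubn and -0.25 to 0.10 for Dab2 (0.0101 with the prefix), and, without control 3, -0.0308 (without control 2) to 0.24 for Ctsd. In females Ctsd was 0.11 with scaling and 0.0458 with voom, and Fcgrt 0.0316 with scaling and -0.42 to 0.23 without single libraries, 0.23 without Kl/Kl 3. Without Kl/Kl 3, Amn was 0.0175 with the block, 0.0203 with age and -0.12 to 0.0175 without single libraries, and Ctsd 0.0207 with the block, 0.0148 with age, 0.00267 with the prefix and -0.0453 to 0.0241 without single libraries. The causes were not tested. The precision is limited by 2 to 5 libraries per group, and counting depth is known only as an estimate.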
